A study of Mus musculus with 20 samples.

Results

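Respiratory complex assembly factors are the nuclear-encoded proteins that build the complexes of the mitochondrial respiratory chain without being part of the finished enzymes. A list of 42 mouse genes was taken by symbol, and 41 of them had a row among the 25851 genes of the deposited expression table. Sco2 was not analysed here. All 41 passed the filter on low values, a mean of at least 0.5 FPKM over the 20 libraries, where FPKM are mapped fragments scaled to exon length and library size. They comprise 14 factors for complex I, 4 for complex II, 6 for complex III, 15 for complex IV and 2 for complex V, and they were set against 83 nuclear genes for the structural subunits of the same complexes.

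Each respiratory complex is put together in modules, and its subunits come from the nuclear and the mitochondrial genome. Assembly factors hold partly built modules, insert haem, copper, iron-sulphur clusters and flavin, modify single residues, or place proteins in the inner membrane, and then leave. The heart depends on oxidative phosphorylation, and inherited loss of several of these factors causes mitochondrial disease with cardiomyopathy. PGC-1α, encoded by Ppargc1a, is a coactivator of nuclear receptors and nuclear respiratory factors that drives expression of mitochondrial genes.

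The study compared hearts of male mice aged 14 to 16 weeks in a design of genotype by exercise, with 5 mice in each of 4 groups. The groups were wild-type mice kept sedentary, mice labelled as cardiomyocyte knockouts of PGC-1α kept sedentary, and mice of both genotypes that ran voluntarily on wheels for 6 weeks as endurance training. The genotype label is the only allele named, the Cre line and the deleted part of the gene are not given in the sources used here, and strain background is not given either. The RNA was from bulk heart tissue, in which fewer cells of a type and less RNA per cell cannot be told apart.

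Recovered reads per library, in units of 1000 reads, numbered 14162 to 30431, and 36 of the 38 members with recoverable reads had a median of at least 100 reads per library. Ppargc1a, the gene named in the genotype label, read 9.39 to 15.4 FPKM in sedentary wild-type and 18.2 to 27.9 FPKM in sedentary labelled knockout hearts, and 10.4 to 21.9 FPKM against 18.7 to 26.9 FPKM after training. It was higher in the labelled knockouts by 0.88 ± 0.19 (log2, SE) in sedentary mice (limma, adjusted p = 0.00471) and by 0.55 ± 0.19 in trained mice (adjusted p = 0.0387), so a whole-gene value goes against the label, and a value over the whole gene does not show whether a deleted exon is missing. Throughout, these groups are called labelled knockout, and each direction below is relative to that label. Libraries that stood apart were trained wild-type 4 and 5 and trained labelled knockout 2 and 5, with the atrial gene Myl7 above 1000 FPKM, and sedentary wild-type 1 to 4 and sedentary labelled knockout 1, with the clock gene Arntl above 2 FPKM. The 4 libraries with high Myl7 also held 3.94 to 36.7 FPKM of the adipocyte gene Adipoq, and other libraries at most 0.362 FPKM. They held 4.42 to 117 FPKM of the brown adipocyte gene Ucp1, and other libraries at most 0.0367 FPKM. Cardiomyocyte markers were abundant in every library, with a sum over 8 genes of 14279 to 26040 FPKM.

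In trained mice the assembly factors were lower in labelled knockout than in wild-type hearts. Of the 41 genes 29 fell and 1 rose, against 15.4% and 12.5% of the 13723 genes tested that fell and rose in the same comparison, and the median log2 difference was -0.39 against -0.01 over all genes tested. Training within the labelled knockouts gave 30 genes that fell and 0 that rose, where 16.3% of all genes fell and 12.1% rose, with a median of -0.35 against -0.02. These comparisons share the trained labelled knockout libraries. Of the members, 27 fell in both, Ttc19 and Cox11 fell in the first only, and Acad9, Sdhaf2 and Coa3 fell in the second only. How many of all genes fell in both was not computed. For 23 of the 41 genes all 5 trained labelled knockout libraries lay below all 15 other libraries, as they did for 6.38% of all genes tested.

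In sedentary mice the difference was smaller and covered fewer genes. Ndufaf4, Ndufaf5, Ndufaf6, Tmem126b, Timmdc1, Uqcc1, Ttc19, Sco1 and Cox11 fell in the labelled knockouts and Cox19 rose, which is 9 and 1 of 41 where 6.32% and 6.96% of all genes fell and rose. The members' median was -0.13 and that of all genes -0.01. This balance was not kept under TPM scaling (each library set to a constant FPKM sum), with 2 that fell and 2 that rose. There 2.84% of all genes fell and 7.64% rose. With log2 Arntl as a covariate 1 fell and 1 rose, where 2.35% and 1.98% of all genes fell and rose. Only sedentary wild-type 1 to 4 and sedentary labelled knockout 1 had high Arntl, so genotype and this mark can hardly be told apart in sedentary mice. The same limit holds for wild-type training and the interaction, and for each sedentary call below. Relative to the median of all genes, the members' median was -0.12 in the main fit, -0.11 under TPM scaling and -0.11 with the covariate. All 9 that fell in sedentary mice also fell in trained mice, where 29 of the 41 members fell. The 2 comparisons share no library, but both drew on the same estimate of the spread. Across the 41 genes, which are not independent replicates, the log2 differences of the 2 comparisons had a Pearson correlation of 0.49 and a Spearman correlation of 0.46, and 33 genes had the same sign in both. In sedentary mice 31 of the 41 differences were negative, and in trained mice 37. The shares of all genes that fell in both, or that had the same sign in both, were not computed.

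Training of wild-type mice changed few members. Ndufaf1 and Uqcc1 fell and 0 rose, close to the 2.53% and 2.94% of all genes that fell and rose, and the members' median was -0.11 against -0.01. This count was sensitive to single libraries, as was that of all genes. Without trained wild-type library 1, 11 members fell, and 16.8% of all genes passed in both directions together. Without trained wild-type library 2, 4 or 5 or sedentary wild-type library 1 or 3, 0 members fell, and 0.919% to 1.85% of all genes passed. At an unadjusted p under 0.05 in the fit of all libraries, 13 members were lower and 0 higher. The share of all genes at that threshold was not computed, so this count is not set against genes in general.

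The training change itself differed between genotypes for 8 members, all in the negative direction, namely Ndufaf3, Ndufaf6, Ndufaf8, Ecsit, Foxred1, Uqcc2, Cox14 and Coa3. This interaction, the training change in labelled knockouts minus that in wild-type mice, was negative for 5% and positive for 2.32% of all genes, and its median was -0.23 over the members and -0.01 over all genes. Ndufaf6, Ndufaf8, Ecsit, Foxred1 and Uqcc2 passed whichever single library was left out. All 8 calls were lost under TPM scaling and under scaling without the mitochondrial genome, with 0 members passing in either. Under these scalings the interaction passed in the negative direction for 0.421% and 0.48% of all genes, and in the positive direction for 2.55% and 4.57%. Without the 5 libraries with high Arntl 0 members passed in the interaction or in the sedentary comparison, in which 1 sedentary wild-type library then remained, while 29 still fell and 1 still rose in trained mice.

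**Figure D1:**
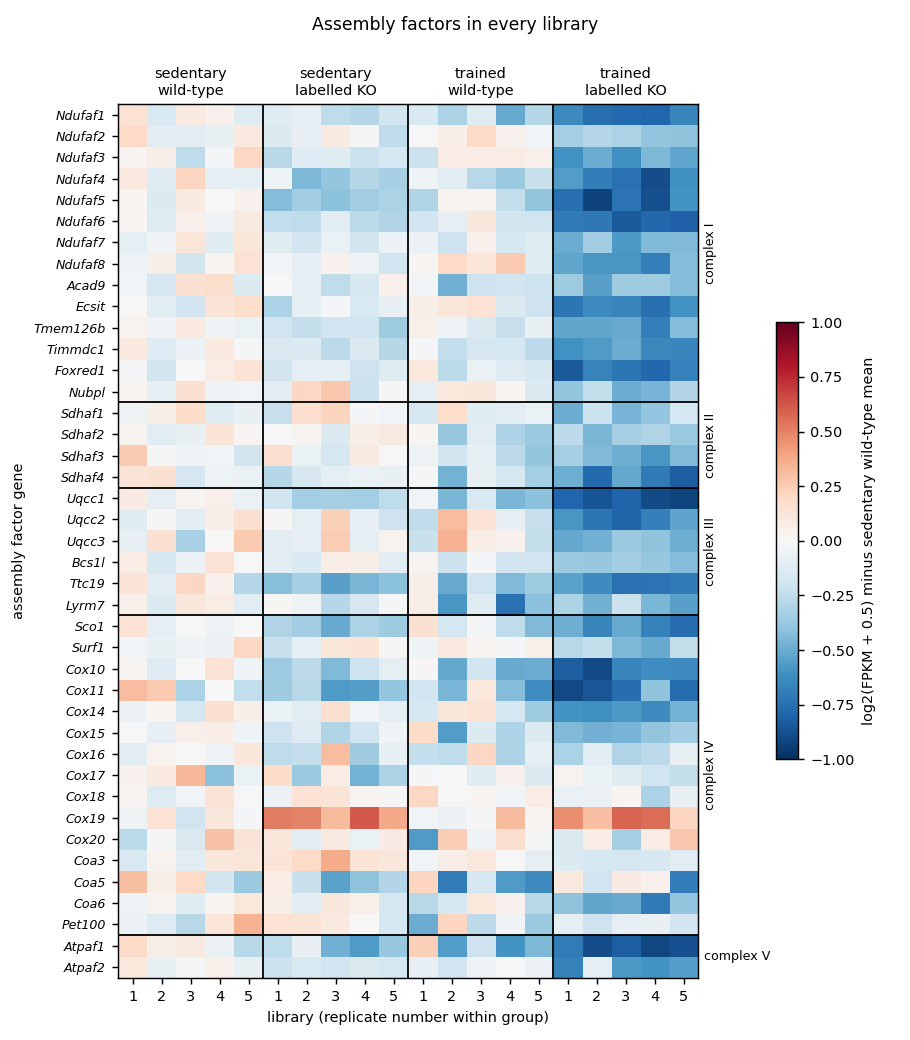
Each row is an assembly factor and each column a library, grouped by genotype and training, and colour is log2(FPKM + 0.5) minus the mean of the 5 sedentary wild-type libraries. The trained labelled knockout block is blue for most genes of complexes I to III and V, and the Cox19 row is red in both labelled knockout blocks.

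The scaling between libraries matters for these counts. When each library was rescaled to a constant FPKM sum (TPM), the median of all genes in the trained genotype comparison moved to 0.24, and 7 members fell and 2 rose, while 5.71% of all genes fell and 37.4% rose. Relative to that median the members stood at -0.38, against -0.39 with the deposited scaling. Rescaling without transcripts of the mitochondrial genome moved the median of all genes to 0.18 and left 12 that fell and 1 that rose, where 7.14% of all genes fell and 27.8% rose, with the members at -0.38 relative to it. In both directions together the members passed no more often than genes in general under these scalings, 9 and 13 of 41 against 43.1% and 34.99% of all genes. The members' median relative to all genes thus moved by 0.01, while the number that passed the test fell from 30 to 9 and 13. Ndufaf5, Ndufaf6, Ndufaf8, Ecsit, Foxred1, Uqcc1 and Uqcc2 fell in trained mice under all of these scalings.

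Marker genes of other cell types moved in the same libraries. In trained labelled knockout hearts the summed cardiomyocyte markers were 14279 to 16613 FPKM against 17747 to 23091 FPKM in trained wild-type hearts, and 6 of the 8 fell, with a median log2 difference of -0.46. Of 5 fibroblast markers 4 rose (sum 266 to 372 FPKM against 115 to 188 FPKM, median 1.12), and all 5 macrophage markers rose (209 to 382 FPKM against 99.8 to 181 FPKM, median 1.23). Summed smooth muscle markers did not overlap (490 to 547 FPKM against 88.9 to 195 FPKM), where Acta2 rose and the 2 others tested did not pass, and 2 of 5 endothelial markers fell (median -0.37). Within labelled knockouts 7 of the 8 cardiomyocyte markers fell with training, with a median of -0.68. In sedentary mice 2 of the 8 fell and the median was -0.07, and the sums overlapped, at 20846 to 26040 FPKM in wild-type and 21032 to 24817 FPKM in labelled knockout hearts. Other types did differ there: 2 of 5 macrophage markers rose (148 to 167 FPKM against 102 to 139.5 FPKM, median 0.42), smooth muscle sums were 354 to 408 FPKM against 48.9 to 157 FPKM with Acta2 risen, both skeletal muscle markers tested rose (3.14 to 9.92 FPKM against 0.664 to 1.98 FPKM), and 1 of 5 endothelial markers fell. Summed atrial markers were 265 to 900 FPKM in sedentary labelled knockout hearts and 34.3 to 237 FPKM in sedentary wild-type hearts. Of these 4 markers 0 passed there. In trained mice 1 of the 4 rose, and the sums overlapped (1476 to 5419 FPKM against 13.5 to 8899 FPKM in wild-type hearts). The part of these shifts in the members' changes was not tested. Without the 4 libraries with high Myl7, 29 members fell and 1 rose in the trained genotype comparison and 28 fell with training in labelled knockouts.

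Promoters are shown for Ndufaf4, Ndufaf5 and Ttc19, the members whose windows held the palindromic core of the site for nuclear respiratory factor 1 (NRF1), a regulator of respiratory chain genes that PGC-1α coactivates. All 3 were among the 9 that fell in both genotype comparisons. How many of all genes with this core fell in both was not computed. Among the rest of those 9, the windows of Tmem126b, Timmdc1, Uqcc1, Sco1 and Cox11 did not hold this core, and Ndufaf6 had no window. Of the other motifs given below, the ETS-family motif was in the window of Timmdc1 and the YY1 motif in that of Tmem126b among these 9. A link between any of these motifs and the changes was not tested. The sequences are from RefSeq promoter windows on GRCm38.p6, plus strand, 5′ to 3′, with the motif CGCATGCG in capitals, and are shortened to leave out annotated exons other than the first bases of Ndufaf5.
Ndufaf4, chr4:24897833-24898082: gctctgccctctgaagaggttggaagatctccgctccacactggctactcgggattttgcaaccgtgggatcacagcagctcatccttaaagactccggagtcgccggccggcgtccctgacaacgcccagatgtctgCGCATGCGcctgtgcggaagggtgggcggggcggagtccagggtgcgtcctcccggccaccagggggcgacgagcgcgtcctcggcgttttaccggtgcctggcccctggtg
Ndufaf5, chr2:140170565-140170678: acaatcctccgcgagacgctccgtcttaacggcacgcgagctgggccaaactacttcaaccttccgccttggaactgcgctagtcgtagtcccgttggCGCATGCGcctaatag
Ttc19, chr11:62281376-62281472: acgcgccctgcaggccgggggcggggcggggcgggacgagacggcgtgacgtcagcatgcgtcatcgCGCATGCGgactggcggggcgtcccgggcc
The match lay 112 bases before the first exon of Ndufaf4, 30 bases before that of Ttc19 and 14 bases after the first exon start of Ndufaf5. Upstream of Ndufaf5 and Ttc19 the neighbouring genes Esf1 and Zswim7 start on the opposite strand.

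Windows of 300 bases, 250 before to 50 after the start, were found for 36 of the 41 members, 68 of the 83 subunits and 9706 of the genes tested, and motifs were searched on both strands. CGCATGCG was in 3 member windows (8.33%), 9 subunit windows (13.2%) and 4.23% of the windows of tested genes. The estrogen-related receptor site TCAAGGTCA was in 0 of 36 member windows, 2 subunit windows and 0.361% of tested genes' windows, and its half-site AAGGTCA, which lies within it, in 1, 8 and 3.97%. The ETS-family motif CCGGAAGT was in 6 member windows (16.7%), 5 subunit windows and 8.95% of tested genes' windows, and the YY1 motif AAGATGGCG in 4 (11.1%), 7 and 3.57%. These matches describe letters in a window and are not measured binding sites.

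Complex I receives electrons from NADH and is the largest complex. All 14 of its factors fell with training in labelled knockouts (median -0.40), 13 fell in the trained genotype comparison (median -0.47), and 5 fell in the sedentary one (median -0.16). Acad9 was the 1 factor that did not pass in trained mice.

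Ndufaf6 (chr4:11051045-11076205, minus strand of GRCm38, as all positions below) acts early in building the arm that projects into the matrix. Ndufaf6 read 13.1, 11.8, 13.4, 12.6 and 13.8 FPKM in sedentary wild-type and 10.8, 10.8, 11.9, 10.7 and 10.4 FPKM in sedentary labelled knockout hearts. In trained hearts Ndufaf6 read 11.3, 12.2, 14.0, 11.3 and 11.2 FPKM in wild-type and 7.74, 7.66, 6.99, 7.28 and 7.15 FPKM in labelled knockout mice. The trained labelled knockout values lay below every other library, while the sedentary groups touched at 1 library each. Its log2 difference was -0.66 ± 0.07 in trained mice (it fell by 36.9%, adjusted p = 4.07e-07), the smallest adjusted p of any member, and -0.23 ± 0.07 in sedentary mice (adjusted p = 0.0229), where the call was lost in 5 of 20 fits that leave out 1 library, with an adjusted p of 0.0605 without sedentary labelled knockout 5. The interaction was -0.43 ± 0.09 (adjusted p = 0.0119).

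Ndufaf5 (chr2:140170649-140203689, plus strand) is a hydroxylase that modifies an arginine of a core subunit, and its promoter is among those shown above. Ndufaf5 read 10.6, 9.43, 11.1, 10.4 and 10.8 FPKM in sedentary wild-type and 7.60, 8.12, 7.73, 8.09 and 8.27 FPKM in sedentary labelled knockout hearts. In trained hearts Ndufaf5 read 8.40, 10.7, 10.7, 8.75 and 7.82 FPKM in wild-type and 5.98, 5.26, 6.06, 5.44 and 6.71 FPKM in labelled knockout mice. Genotypes did not overlap in either state, and trained wild-type libraries 1, 4 and 5 were close to the sedentary labelled knockouts. It fell by 0.37 ± 0.08 on the log2 scale in sedentary labelled knockouts (adjusted p = 0.00629) and by 0.61 ± 0.08 in trained ones (adjusted p = 1.78e-05), and the interaction of -0.24 ± 0.12 did not pass (adjusted p = 0.21).

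Ndufaf8 (chr11:120098928-120100705, plus strand) encodes the partner that stabilises Ndufaf5. Ndufaf8 read 32, 34.2, 28.9, 33.5 and 36.4 FPKM in sedentary wild-type and 32.2, 30.9, 33.9, 31.7 and 28.6 FPKM in sedentary labelled knockout hearts. In trained hearts Ndufaf8 read 33.3, 37.8, 35.7, 39.5 and 30.2 FPKM in wild-type and 22.8, 21.8, 21.9, 20.3 and 24.2 FPKM in labelled knockout mice. The sedentary groups overlapped widely, unlike those of its partner, and the trained labelled knockouts lay below all other libraries. The trained difference was -0.65 ± 0.08 (adjusted p = 3e-06), the sedentary one -0.07 ± 0.08 (adjusted p = 0.597, 95% interval -0.23 to 0.10), and the interaction -0.59 ± 0.11 (adjusted p = 0.00705).

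Ecsit, Ndufaf1, Acad9, Tmem126b and Timmdc1 belong to or work with the intermediate assembly complex that builds the membrane arm. Ecsit (chr9:22072246-22085438, minus strand) read 36.4, 33.8, 31.9, 39.9 and 41.2 FPKM in sedentary wild-type and 29.2, 34.1, 36.1, 32.9 and 34.7 FPKM in sedentary labelled knockout hearts. In trained hearts Ecsit read 38.0, 39.5, 40.3, 33.2 and 31.5 FPKM in wild-type and 21.9, 23.5, 22.9, 21.4 and 23.8 FPKM in labelled knockout mice. The trained labelled knockouts stood apart, below all 15 other libraries. The trained difference of -0.67 ± 0.08 (it fell by 37.1%, adjusted p = 5.48e-06) was the most negative of any member, the sedentary difference was -0.13 ± 0.08 (adjusted p = 0.297), and the interaction was -0.54 ± 0.12 (adjusted p = 0.0121).

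Ndufaf1 (chr2:119655446-119662827, minus strand) read 35.6, 28.8, 34.1, 33.1 and 29.4 FPKM in sedentary wild-type and 29.5, 30.2, 26.8, 26.2 and 28.2 FPKM in sedentary labelled knockout hearts. In trained hearts Ndufaf1 read 28.8, 25.7, 29.5, 22.5 and 26.3 FPKM in wild-type and 20.5, 18.8, 18.5, 18.4 and 20.3 FPKM in labelled knockout mice. Wild-type values after training overlapped both sedentary groups, and trained labelled knockout values were the lowest. It fell with training in both genotypes, by 0.28 ± 0.08 in wild-type mice (adjusted p = 0.0432, lost in 13 of 20 fits that leave out 1 library, up to 0.13 without trained wild-type 4) and by 0.54 ± 0.08 in labelled knockouts (adjusted p = 4.91e-05). The difference between these changes did not pass (-0.26 ± 0.11, adjusted p = 0.143).

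Tmem126b (chr7:90467438-90476001, minus strand) encodes a membrane protein of the same assembly complex. Tmem126b read 8.06, 7.66, 8.41, 7.66 and 7.47 FPKM in sedentary wild-type and 6.77, 6.59, 6.82, 6.78 and 6.03 FPKM in sedentary labelled knockout hearts. In trained hearts Tmem126b read 8.14, 7.61, 7.06, 6.60 and 7.43 FPKM in wild-type and 5.33, 5.31, 5.37, 4.68 and 5.67 FPKM in labelled knockout mice. Neither pair of genotypes overlapped. Its log2 difference was -0.23 ± 0.06 in sedentary mice (adjusted p = 0.0187, and 0.0586 without sedentary labelled knockout 5), and -0.45 ± 0.06 in trained mice (adjusted p = 2.42e-05).

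Timmdc1 (chr16:38498347-38522663, minus strand) encodes a membrane protein that helps build the membrane arm. Timmdc1 read 28.0, 23.8, 24.99, 27.8 and 25.9 FPKM in sedentary wild-type and 23.5, 23.6, 21.7, 23.5 and 21.3 FPKM in sedentary labelled knockout hearts. In trained hearts Timmdc1 read 25.8, 22.0, 23.1, 22.9 and 21.7 FPKM in wild-type and 16.9, 17.4, 18.4, 16.5 and 16.4 FPKM in labelled knockout mice. The sedentary groups were separated by a narrow gap and the trained ones by a wide one. Its log2 difference was -0.19 ± 0.06 in sedentary mice (adjusted p = 0.0409, lost in 8 of 20 fits that leave out 1 library, up to 0.116 without sedentary wild-type 1) and -0.42 ± 0.06 in trained mice (adjusted p = 3.28e-05).

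Acad9, which also oxidises fatty acyl-CoA, was the lowest expressed of these, with 5.28 ± 0.636, 4.92 ± 0.455, 4.45 ± 0.540 and 3.84 ± 0.240 FPKM (SD, n = 5) in sedentary wild-type, sedentary labelled knockout, trained wild-type and trained labelled knockout hearts, the order used for all group means below. It fell with training in labelled knockouts (-0.32 ± 0.09, adjusted p = 0.0105) and did not pass between the trained genotypes (-0.19 ± 0.09, adjusted p = 0.129).

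Foxred1 (chr9:35204206-35211055, minus strand) encodes an FAD-dependent oxidoreductase-like factor of the middle to late steps. Foxred1 read 18.6, 16.5, 18.8, 19.9 and 20.7 FPKM in sedentary wild-type and 16.5, 17.7, 17.7, 16.2 and 17.3 FPKM in sedentary labelled knockout hearts. In trained hearts Foxred1 read 20.3, 15.6, 17.97, 17.2 and 16.9 FPKM in wild-type and 10.3, 11.7, 11.2, 10.7 and 11.6 FPKM in labelled knockout mice. All libraries outside the trained labelled knockouts overlapped. With training it fell by 0.60 ± 0.07 in labelled knockouts (adjusted p = 1.09e-05) and its difference was -0.10 ± 0.07 in wild-type mice (adjusted p = 0.341), and the interaction was -0.50 ± 0.10 (adjusted p = 0.00825).

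Ndufaf3 (chr9:108565537-108567434, minus strand) works with Ndufaf4 in the early joining of modules. Ndufaf3 read 16.0, 16.5, 13.2, 15.6 and 18.3 FPKM in sedentary wild-type and 12.97, 14.4, 14.5, 13.6 and 14.0 FPKM in sedentary labelled knockout hearts. In trained hearts Ndufaf3 read 13.6, 16.7, 16.7, 16.7 and 16.4 FPKM in wild-type and 10.2, 11.1, 10.2, 11.5 and 10.9 FPKM in labelled knockout mice. The trained labelled knockouts were again lowest, and trained wild-type library 1 sat apart from its group. The trained difference was -0.55 ± 0.08 (adjusted p = 2.09e-05). Its interaction of -0.37 ± 0.11 passed narrowly (adjusted p = 0.0464) and was lost in 16 of 20 fits that leave out 1 library, up to 0.0903 without trained labelled knockout 3.

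Ndufaf4, the partner of Ndufaf3, read 17.01 ± 1.86, 13.7 ± 1.61, 14.7 ± 1.37 and 10.3 ± 0.944 FPKM (SD, n = 5), and fell in sedentary mice by 0.30 ± 0.09 (adjusted p = 0.0342, and 0.106 without sedentary wild-type 3) and in trained mice by 0.49 ± 0.09 (adjusted p = 0.00036). Ndufaf2, a chaperone of a late intermediate, fell in trained labelled knockouts from 4.91 ± 0.323 FPKM in wild-type to 3.60 ± 0.137 FPKM (log2 difference -0.40, adjusted p = 0.000449). Ndufaf7, a methyltransferase acting on a core subunit, fell from 7.92 ± 0.609 to 6.07 ± 0.368 FPKM (-0.36, adjusted p = 0.000414). Nubpl, which delivers iron-sulphur clusters, fell from 2.40 ± 0.228 to 1.73 ± 0.175 FPKM (-0.38, adjusted p = 0.00448). None of Ndufaf2, Ndufaf7 and Nubpl passed in sedentary mice.

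**Figure D2:**
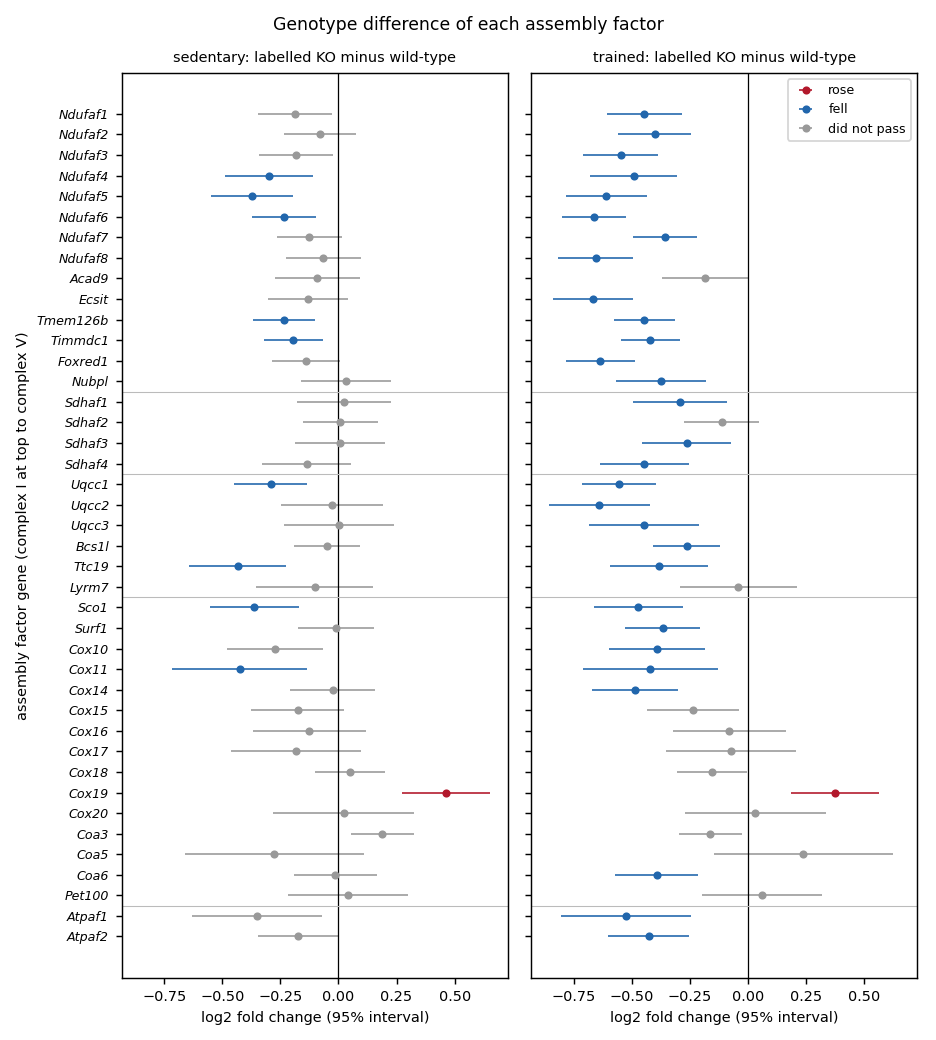
Points are log2 differences, labelled knockout minus wild-type, of each assembly factor in sedentary mice at left and trained mice at right, and lines are 95% intervals of the limma fit. In trained mice 29 genes are marked as fallen and Cox19 as risen, against 9 and Cox19 in sedentary mice.

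The 4 factors of complex II, succinate dehydrogenase, did not pass between sedentary genotypes (log2 differences from -0.14 to 0.02) and all fell with training in labelled knockouts. Sdhaf4, which binds the flavinylated subunit, read 30.9 ± 2.98, 28.0 ± 1.71, 26.7 ± 3.42 and 19.4 ± 2.11 FPKM (SD, n = 5), and its trained genotype difference was -0.45 ± 0.09 (adjusted p = 0.00103). Sdhaf1 and Sdhaf3, which handle the iron-sulphur subunit, were at 2.45 ± 0.294 and 1.43 ± 0.178 FPKM in trained wild-type and fell to 1.91 ± 0.246 and 1.10 ± 0.10 FPKM in trained labelled knockout hearts. Both calls were lost on leaving out single libraries, up to an adjusted p of 0.0887 for Sdhaf1 without trained wild-type 2 and of 0.10 for Sdhaf3 without trained labelled knockout 4. Sdhaf2, which helps attach flavin, was 19.0 ± 1.25, 19.1 ± 1.22, 16.2 ± 2.09 and 14.8 ± 0.776 FPKM, and did not pass between trained genotypes (-0.11 ± 0.08, adjusted p = 0.299).

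In complex III, the cytochrome bc1 complex, 5 of 6 factors fell in trained labelled knockouts against trained wild-type hearts, with a median of -0.42. Uqcc1 and Uqcc2 bind newly made cytochrome b. Uqcc1 (chr2:155846894-155930310, minus strand) read 32.2, 28.3, 31.1, 31.6 and 29.1 FPKM in sedentary wild-type and 26.5, 23.9, 24.1, 23.9 and 25.5 FPKM in sedentary labelled knockout hearts. In trained hearts Uqcc1 read 29.8, 22.1, 27.4, 22.1 and 22.8 FPKM in wild-type and 17.3, 16.5, 17.3, 16.2 and 15.9 FPKM in labelled knockout mice. Its level was highest in sedentary wild-type hearts, similar in sedentary labelled knockout and trained wild-type hearts, and lowest with both. Uqcc1 passed in all 4 pairwise comparisons, with -0.29 ± 0.08 between sedentary genotypes (adjusted p = 0.0148), -0.30 ± 0.08 with training in wild-type mice (adjusted p = 0.0318, and 0.102 without trained wild-type 4), -0.56 ± 0.08 with training in labelled knockouts (adjusted p = 3.11e-05) and -0.55 ± 0.08 between trained genotypes (adjusted p = 1.64e-05). The interaction did not pass (-0.26 ± 0.11, adjusted p = 0.136).

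Uqcc2 (chr17:27122663-27133916, minus strand), its partner, differed in pattern. Uqcc2 read 70.8, 77.8, 71.2, 80.4 and 85.8 FPKM in sedentary wild-type and 77.5, 72.0, 91.1, 72.5 and 66.5 FPKM in sedentary labelled knockout hearts. In trained hearts Uqcc2 read 64.4, 95.3, 85.2, 72.9 and 65.6 FPKM in wild-type and 51.4, 46.6, 44.0, 47.7 and 53.3 FPKM in labelled knockout mice. The first 3 groups overlapped throughout, and the trained labelled knockouts lay below them. Between sedentary genotypes the difference was -0.03 ± 0.10 (adjusted p = 0.881, 95% interval -0.25 to 0.19), between trained genotypes -0.64 ± 0.10 (adjusted p = 0.000112), and the interaction of -0.61 ± 0.15 (adjusted p = 0.0203) was the most negative of any member.

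The other complex III factors act on cytochrome b or on the Rieske iron-sulphur protein. Ttc19, which clears Rieske fragments and whose promoter is shown above, read 10.5 ± 1.45, 7.56 ± 0.435, 8.50 ± 1.47 and 6.34 ± 0.430 FPKM (SD, n = 5). It had the most negative sedentary difference of any member, -0.43 ± 0.10 (adjusted p = 0.00764), a similar one in trained mice (-0.38 ± 0.10, adjusted p = 0.0071), and an interaction of 0.05 ± 0.14 (adjusted p = 0.847). Uqcc3 fell from 35.4 ± 6.16 FPKM in trained wild-type to 25.6 ± 1.13 FPKM in trained labelled knockout hearts (-0.45, adjusted p = 0.00536). Bcs1l, the ATPase that moves the Rieske protein across the membrane, fell from 12.7 ± 1.07 to 10.5 ± 0.253 FPKM (-0.26, adjusted p = 0.00652), a change that became 0.02 under TPM scaling. Lyrm7, the Rieske chaperone, passed in no comparison, and its trained wild-type values ran from 2.76 to 5.22 FPKM.

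Among the listed factors those of complex IV, cytochrome c oxidase, were the least uniform. Of these 15, 6 fell and 1 rose between trained genotypes, with a median of -0.16. Further complex IV factors outside the list are given below. Cox14 (chr15:99725618-99728136, plus strand) and Coa3 hold newly made Cox1. Cox14 read 184, 195, 170.2, 213 and 199.8 FPKM in sedentary wild-type and 184, 179, 214, 188 and 180.1 FPKM in sedentary labelled knockout hearts. In trained hearts Cox14 read 170.3, 208, 211, 170.2 and 149.5 FPKM in wild-type and 127, 125, 129, 124 and 138 FPKM in labelled knockout mice. It was the most abundant member, and its trained labelled knockout values lay below all others. The trained difference was -0.49 ± 0.09 (adjusted p = 0.000328) and the interaction -0.46 ± 0.12 (adjusted p = 0.0329, lost in 10 of 20 fits that leave out 1 library, up to 0.0692 without sedentary labelled knockout 3).

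Coa3 read 67.3 ± 5.92, 76.7 ± 5.83, 67.7 ± 3.81 and 60.4 ± 1.15 FPKM (SD, n = 5). Its sedentary difference was 0.19 ± 0.07 (adjusted p = 0.0609), its trained one -0.16 ± 0.07 (adjusted p = 0.0732), and the interaction of -0.35 ± 0.09 passed (adjusted p = 0.0296, and 0.0607 without sedentary wild-type 1). It fell with training in labelled knockouts by 0.34 ± 0.07 (adjusted p = 0.000678).

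Haem and copper factors of complex IV went different ways. Sco1, which delivers copper to Cox2, read 6.49 ± 0.459, 4.93 ± 0.295, 5.87 ± 1.01 and 4.06 ± 0.366 FPKM (SD, n = 5) and fell between genotypes both in sedentary (-0.36 ± 0.09, adjusted p = 0.0128) and in trained mice (-0.47 ± 0.09, adjusted p = 0.000612). Its fall with training in labelled knockouts (-0.25 ± 0.09, adjusted p = 0.0441) was lost without trained labelled knockout 5 (adjusted p = 0.101). Cox11, which delivers copper to Cox1, read 9.35 ± 1.91, 6.75 ± 0.637, 7.41 ± 1.62 and 5.36 ± 0.853 FPKM, and its sedentary call (-0.43 ± 0.14, adjusted p = 0.0494) was lost in 14 of 20 fits that leave out 1 library, up to 0.142 without sedentary wild-type 1. In trained mice it was -0.42 ± 0.14 (adjusted p = 0.0299, and 0.0978 without trained wild-type 3).

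Cox10, which starts the conversion of haem B, fell from 19.9 ± 3.53 FPKM in trained wild-type to 14.9 ± 1.32 FPKM in trained labelled knockout hearts (SD, n = 5, log2 difference -0.39, adjusted p = 0.0056). Surf1, involved in haem insertion, fell from 17.2 ± 0.678 to 13.2 ± 1.18 FPKM (-0.37, adjusted p = 0.00136). Coa6, a copper-handling factor for Cox2, fell from 17.8 ± 2.28 to 13.4 ± 1.19 FPKM (-0.39, adjusted p = 0.00171). None of these 3 passed in sedentary mice. Cox15, which completes haem A, was at 10.4 ± 0.461, 9.18 ± 0.646, 9.21 ± 1.84 and 7.63 ± 0.306 FPKM and passed in no comparison.

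Cox19 (chr5:139336189-139351418, minus strand), a soluble protein linked to copper handling, was the 1 member that rose. Cox19 read 11.7, 13.4, 10.5, 13.1 and 11.97 FPKM in sedentary wild-type and 17.5, 17.2, 15.1, 18.7 and 15.9 FPKM in sedentary labelled knockout hearts. In trained hearts Cox19 read 11.8, 11.6, 11.97, 15.1 and 12.3 FPKM in wild-type and 16.9, 15.0, 18.3, 18.1 and 14.1 FPKM in labelled knockout mice. The sedentary groups did not overlap, and after training wild-type library 4 lay within the labelled knockout range. It was higher in the labelled knockouts by 0.46 ± 0.09 in sedentary (37.8%, adjusted p = 0.00237) and 0.38 ± 0.09 in trained mice (29.8%, adjusted p = 0.00399), under each scaling named above and with any 1 library left out. Its training differences were smaller than their errors, 0.05 ± 0.09 in wild-type and -0.04 ± 0.09 in labelled knockout mice.

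Coa5 (chr1:37417084-37430103, minus strand), singled out after its values were seen, had the largest SE of any member on the log2(FPKM + 0.5) scale. Coa5 read 39.9, 33.6, 37.2, 28.3 and 24.8 FPKM in sedentary wild-type and 33.9, 27.6, 22.1, 24.3 and 26.2 FPKM in sedentary labelled knockout hearts. In trained hearts Coa5 read 37.5, 19.7, 28.6, 21.6 and 20.6 FPKM in wild-type and 34.5, 28.0, 34.2, 33.2 and 19.8 FPKM in labelled knockout mice. All 4 groups overlapped, the interaction was 0.51 ± 0.26 (adjusted p = 0.217), and with TPM scaling its trained genotype difference was 0.53 (adjusted p = 0.028). Cox16, Cox17, Cox18, Cox20 and Pet100 also passed in no comparison, and their means over all libraries were 1.81, 1.07, 3.64, 1.08 and 2.98 FPKM. Cox20 rested on 10 to 28 reads per library, so a change of the size seen in other members was hard to detect there.

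**Figure D3:**
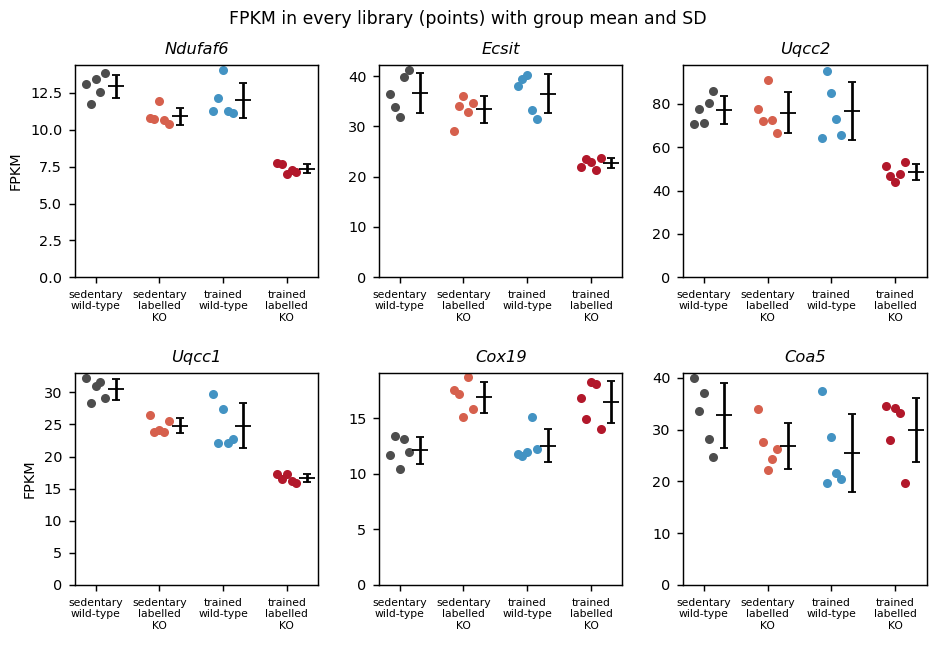
Points are FPKM of 6 genes in every library by group, with group mean and SD (n = 5), and each vertical axis starts at 0. Ndufaf6, Ecsit and Uqcc2 stand apart in trained labelled knockout hearts, Uqcc1 steps down with genotype and with training, Cox19 is higher in labelled knockout hearts, and Coa5 overlaps in all groups.

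Both factors of complex V, ATP synthase, fell in trained labelled knockouts. Atpaf1, which binds the beta subunit of the catalytic head, read 18.4 ± 2.27, 14.3 ± 2.06, 14.9 ± 4.01 and 10.003 ± 0.626 FPKM (SD, n = 5), with a trained genotype difference of -0.52 ± 0.13 (adjusted p = 0.00587). Atpaf2, which binds the alpha subunit, read 16.9 ± 0.942, 14.9 ± 0.290, 16.0 ± 0.824 and 11.9 ± 2.16 FPKM, with -0.43 ± 0.08 (adjusted p = 0.000617). Trained labelled knockout library 2 held 15.7 FPKM of Atpaf2, within the wild-type range, and the other 4 held 10.3 to 11.3 FPKM. Neither passed in sedentary mice (adjusted p = 0.0886 for Atpaf1 and 0.166 for Atpaf2).

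The structural subunits moved in the same direction and by more. Between trained genotypes 80 of 83 fell with a median of -0.80, against -0.39 for the assembly factors, and with training in labelled knockouts 78 fell with a median of -0.65, against -0.35. In sedentary mice 31 subunits fell (37.3%, median -0.22), led by the heart and muscle isoform Cox7a1 at -1.25 ± 0.14 (adjusted p = 1.63e-05), and 9 assembly factors fell (22.0%, median -0.13). The interaction passed for 72 subunits (median -0.60) and 8 assembly factors. Training of wild-type mice gave a median of -0.05 in the subunits, with 1 that fell, and of -0.11 in the assembly factors, with 2. Of all genes tested, 15.4% fell between trained genotypes and 16.3% with training in labelled knockouts. Between sedentary genotypes 6.32% of all genes fell, and with wild-type training 2.53%, and the interaction was negative for 5%. Within each complex the subunit median was also lower between trained genotypes: -0.81 against -0.47 in complex I, -0.65 against -0.28 in II, -0.81 against -0.42 in III, -0.82 against -0.16 in IV and -0.79 against -0.48 in V.

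**Figure D4:**
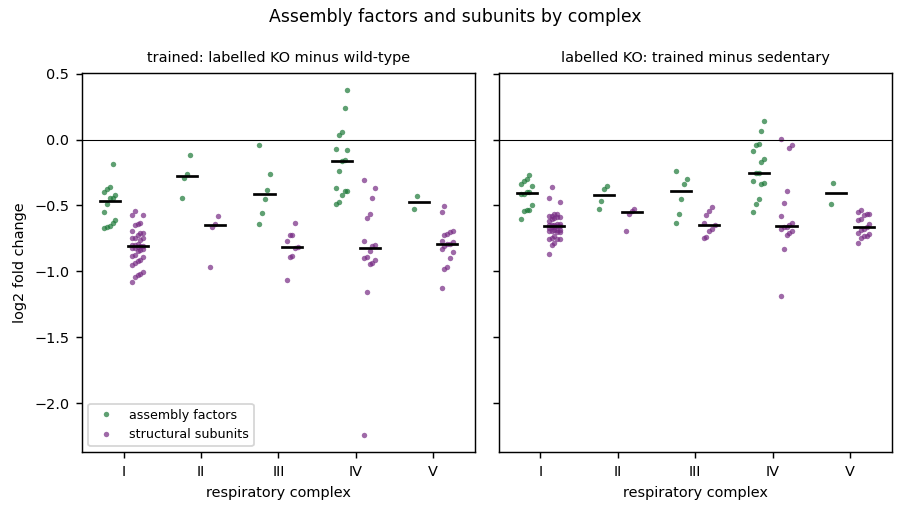
Points are log2 fold changes of assembly factors (green) and structural subunits (purple) by complex, between trained genotypes at left and with training in labelled knockouts at right, and bars are medians. Subunit medians lie lower than assembly factor medians in all 5 complexes in both panels.

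Levels differed as well. FPKM, a level per exon length, had a median over genes of 13.9 for the assembly factors, from Cox17 at 1.07 to Cox14 at 173, and of 207 for the subunits. Only 1 of 41 assembly factors had a mean of at least 100 FPKM, against 66 of 83 subunits. Among genes with a mean of 20 to 100 FPKM, 11 assembly factors had a median trained genotype difference of -0.45 and 14 subunits of -0.81. Across the 41 members the log2 level and the trained genotype difference had a Pearson correlation of -0.38 and a Spearman correlation of -0.48, which are across genes and not over independent replicates. The Cox17 value is per 5773 exon bases, the whole span of the annotated gene, so its FPKM is low for its reads.

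Mean levels over the lists show the same by library. The mean log2(FPKM + 0.5) of the 41 assembly factors was 3.67 ± 0.03 in sedentary wild-type, 3.55 ± 0.02 in sedentary labelled knockout, 3.54 ± 0.08 in trained wild-type and 3.20 ± 0.02 in trained labelled knockout hearts (SD, n = 5). On the deposited scaling the sedentary genotypes did not overlap (3.63 to 3.70 against 3.52 to 3.57). The trained labelled knockouts ran from 3.17 to 3.22 on it, below the lowest other library at 3.44. The FPKM sum of a library was 331876 to 398369 in trained labelled knockouts and at least 410641 elsewhere. These ranges were not computed with a constant FPKM sum, so whether the groups then stay apart is not shown. The subunit mean minus the assembly factor mean, which does not depend on scaling between libraries apart from the pseudocount, was 4.07 ± 0.10, 3.97 ± 0.09, 4.15 ± 0.15 and 3.68 ± 0.10 in the same order. Its trained labelled knockout values, 3.53 to 3.80, lay below every other library, the lowest of which was 3.88.

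**Figure D5:**
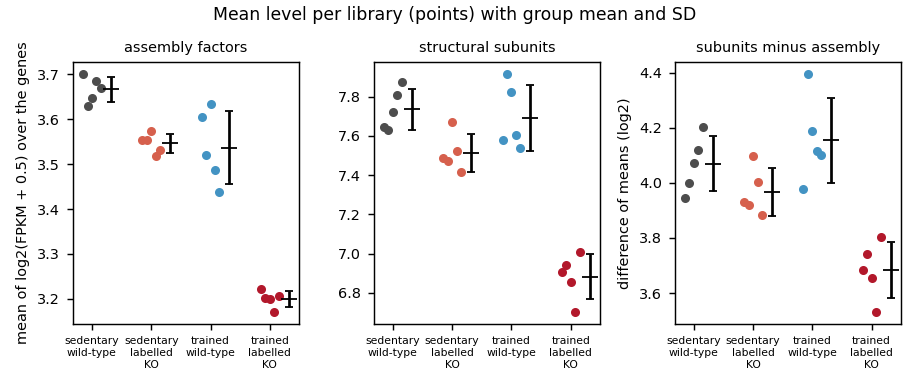
Points are the mean log2(FPKM + 0.5) over 41 assembly factors, over 83 structural subunits, and their difference, in every library by group, with group mean and SD (n = 5), and the vertical axes do not start at 0. With the deposited scaling, trained labelled knockout libraries are lowest in all 3 panels.

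Assembly factors outside the list were also measured. Of 25 further genes for complex assembly 22 had a row, and of these 15 fell between trained genotypes (median -0.41), 21 fell with training in labelled knockouts (median -0.38), 6 fell between sedentary genotypes (median -0.11) and 0 rose in these comparisons. Of all genes tested 15.4%, 16.3% and 6.32% fell in the same order. For complex IV, 6 of 10 further factors fell between trained genotypes (median -0.37), against 6 of 15 listed ones (median -0.16). With training in labelled knockouts 9 of these 10 fell (median -0.36), against 6 of the 15 (median -0.25). The interaction passed in the negative direction for 11 of the 22 (median -0.33), against 8 of the 41 listed members and 5% of all genes. Cmc2, a twin-cysteine protein of complex IV assembly, had the largest difference in trained mice among them, at -1.15, and one of -0.73 in sedentary mice. Dmac2l, a complex V factor, fell by 0.47 ± 0.07 on the log2 scale in sedentary mice (adjusted p = 0.000235), and Aifm1, which supports import of complex I proteins, by 0.37 ± 0.06 (adjusted p = 0.000499).

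Some members share exon bases with other genes. On the opposite strand 15 of 41 do, and 8 share at least 10% of their exon bases, namely Ndufaf2, Ecsit, Sdhaf1, Sdhaf4, Cox11, Cox20, Coa6 and Pet100. The library kit marks strand, but whether the counting used it is not given in the sources used here. Reads on the shared bases of these 8 may thus have been added from the neighbour or left uncounted, which was not tested. The share was largest for Cox20, at 91%. Acad9, Cox16 and Cox17 share 6.82%, 56.8% and 4.45% of their exon bases with a gene on their own strand, where strand cannot separate the reads.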

How the data were processed

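The authors deposited 1 table of FPKM values for 25851 genes in 20 libraries. The submitters' processing notes name HISAT2 2.0.5, featureCounts 1.5.0-p3, DESeq2 1.20.0 and mm10 without their roles. FPKM times exon length (GENCODE M21) gave whole reads, within 0.01, in every library for 24971 genes (96.6%). Columns of no sample numbered 0.

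log2(FPKM + 0.5) of the 13723 genes with a mean of at least 0.5 FPKM was fitted with limma 3.58.1 in R 4.3.3 over the 4 groups (16 residual degrees of freedom, eBayes with trend, two-sided). Each of the 5 comparisons had its own Benjamini-Hochberg adjustment over every gene in the fit, with a threshold of 0.05. Fold changes on this scale understate changes of low genes. The script was tested on simulated data. Tables were made with Python 3.11.15 and pandas 2.3.3. Samples are separate mice. Alternatives tried were other scalings, pseudocounts, filters, array weights, voom on recovered reads, a replicate block and leaving out libraries. Gene positions are from GENCODE M21 on GRCm38.

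The members and gene lists were chosen with earlier results of these data known. By rule, the 12 members with the smallest adjusted p have all values printed, and other members that passed have group means. All values of Cox19 and Coa5 were added after they were seen. Of the structural subunits and of the further assembly factors, up to 4 genes past the threshold in order of p in the sedentary comparison could be named.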

Additional observations from a re-analysis of the deposited data

Results flagged for a closer look

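In 10 of 164 groups of 5 libraries 1 library lay far from the other 4 by Dixon's test, and chance gives about 1 in 20 groups, or 8.2. In sedentary labelled knockout hearts library 3 held 11.9 FPKM of Ndufaf6 (others 10.4 to 10.8), 214 FPKM of Cox14 (others 179 to 188) and 86.8 FPKM of Coa3 (others 72.8 to 76.8), and library 5 held 6.03 FPKM of Tmem126b (others 6.59 to 6.82). In trained wild-type hearts library 1 held 13.6 FPKM of Ndufaf3 (others 16.4 to 16.7), library 2 held 2.96 FPKM of Sdhaf1 (others 2.23 to 2.42) and library 4 held 15.1 FPKM of Cox19 (others 11.6 to 12.3). In sedentary wild-type hearts library 5 held 19.5 FPKM of Surf1 (others 16.0 to 16.5). In trained labelled knockout hearts library 4 held 6.84 FPKM of Cox11 (others 4.69 to 5.23) and library 2 held 15.7 FPKM of Atpaf2 (others 10.3 to 11.3).

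The training change differed between genotypes, by limma's interaction term with Benjamini-Hochberg adjustment, for 8 members. The log2 difference was -0.37 for Ndufaf3, -0.43 for Ndufaf6, -0.59 for Ndufaf8, -0.54 for Ecsit, -0.50 for Foxred1, -0.61 for Uqcc2, -0.46 for Cox14 and -0.35 for Coa3.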

How the results depend on the processing

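Counts below are members that passed, and the cause of each shift was not tested. Under TPM scaling they were 4 between sedentary genotypes, 0 for wild-type training, 8 for training of labelled knockouts, 9 between trained genotypes and 0 for the interaction, against 10, 2, 30, 30 and 8 of 41, where 10.5%, 1.74%, 34.2%, 43.1% and 2.97% of all genes passed. Scaling without the mitochondrial genome gave 6 between sedentary genotypes, 13 for training of labelled knockouts, 13 between trained genotypes and 0 for the interaction, where 9.63%, 27.6%, 34.99% and 5.05% of all genes passed. For labelled knockout training the members' calls were all falls, and 4.58% and 6.67% of all genes fell under these scalings. The interaction passed in the negative direction for 0.421% and 0.48% of all genes under them. Bcs1l between trained genotypes was 0.0157 under TPM scaling (adjusted p = 0.893). For wild-type training, array weights gave 10 (all genes 19.2%), its groups fitted alone 0, limma voom on recovered reads 1, and no filter on low values 1. For the interaction, array weights gave 19 (all genes 36.7%). Alternatives chosen after seeing the data were log2 Arntl as a covariate (2 between sedentary genotypes, 0 for wild-type training and 3 for the interaction), leaving out the 5 libraries with high Arntl (0 in each of these), and log2 Myl7 as a covariate or leaving out the 4 libraries with high Myl7 (0 for wild-type training in both). Leaving out 1 library gave 5 to 12 between sedentary genotypes, 0 to 11 for wild-type training, 29 to 33 for training of labelled knockouts, 27 to 31 between trained genotypes and 5 to 12 for the interaction. In these fits 8.39% to 20.4% of all genes passed between sedentary genotypes and 0.919% to 16.8% for wild-type training. Low read numbers limit Cox20 most, at 10 to 28 reads, and it shares 91% of its exon bases with an opposite-strand gene.

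Replicate numbers are not stated to pair mice, and in 0 of 6 pairs of groups was every same-numbered correlation of deviations above 0.1 (12 of 30 were), so the numbers were not used as pairs. The 6 pairs numbered 1 correlated at 0.25 to 0.36, and in 18 of 60 cases a library correlated best with its own number in another group. With the replicate number as a block, 10, 4, 31, 30 and 9 members passed in the same order of comparisons, where 17.98%, 12.1%, 31.2%, 30.8% and 9.51% of all genes passed.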
